A study of Homo sapiens with 9 samples.

Results

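The transcription factor genes SPI1, CEBPA, CEBPB, CEBPD, CEBPE, GFI1, RUNX1, KLF4, MYB and MYC were followed in RNA sequencing data of the cell line MV4-11, grown from a human acute myeloid leukaemia with a KMT2A fusion gene. The 10 genes were taken by symbol from the 60612 genes of the deposited table, and 9 of them passed the filter for testing, while CEBPE did not. All 9 libraries came from MV4-11 cells harvested at 72 h, with 3 libraries for each title stem. By their characteristics, NCO cells carried a CD36 knockdown and received decitabine, NC1 cells were wild type and received decitabine, and KO1 cells were wild type and received vehicle. CD36 is a scavenger receptor and fatty acid transporter of the cell surface, and decitabine is a deoxycytidine analogue that traps DNA methyltransferases. No group is described as knockdown with vehicle, and the means of the knockdown, the number of clones and the drug dose are not given in the sources used here.

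Myeloid cells are made by a small circuit of transcription factors. PU.1, encoded by SPI1, and the C/EBP proteins switch on receptors, granule proteins and enzymes of monocytes and granulocytes, and KLF4 acts with them on the monocyte side, whereas the repressor GFI1 favours granulocytes. RUNX1 stands above this circuit in blood development, and MYB and MYC are linked to the proliferation and self-renewal of progenitors and of leukaemia cells driven by KMT2A fusions.

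Groups are named here by their stems, because the level of the targeted gene goes against the labels. CD36 averaged 2.49 ± 0.34 FPKM in NCO, 2.18 ± 0.37 FPKM in NC1 and 0.126 ± 0.023 FPKM in KO1 (SD, n = 3 each). FPKM is a fragment count scaled to transcript length and library size. CD36 was thus not lower in the libraries labelled as knockdown than in NC1, with a log2 fold change of 0.14 (NCO minus NC1, limma adjusted p = 0.436), and the stem KO1 reads as a knockout although its libraries are labelled wild type. Whether the labels of KO1 and NCO were exchanged cannot be told from these values, and no library was reassigned. The depth behind each value is unknown, since read counts were not analysed here. FPKM sums lay between 493061 and 530097 per library, and between 11885 and 12280 genes reached 1 FPKM. Mitochondrial genes made up 18.1% ± 0.573 of the sum in NCO, 16.5% ± 1.72 in NC1 and 14.9% ± 0.434 in KO1, and NC1 replicate 3, at 14.5%, stood below the other NC1 libraries.

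The myeloid identity of the line was checked on 12 marker genes, of which 11 passed the filter. Their summed level was 1149 to 1215 FPKM in NCO, 1247 to 1337 FPKM in NC1 and 972 to 1005 FPKM in KO1. Most of this sum was ITGB2, at 452, 464 and 419 FPKM in NCO, NC1 and KO1, TYROBP, at 196, 227 and 198 FPKM, and CD68, at 196, 240 and 72.1 FPKM. CD33, CSF2RA and FLT3 had lower means in NC1 than in KO1, while 8 of the 11 were called higher there. MEIS1, a homeobox gene that KMT2A fusions are known to drive, was the marker that did not pass, with no more than 0.309 FPKM in any library. Markers of erythroid and megakaryocytic cells summed to 9.20 to 12.5 FPKM in NCO, 10.8 to 11.2 FPKM in NC1 and 9.93 to 11.4 FPKM in KO1, and 7 of these 14 genes, the alpha globin genes HBA1 and HBA2 among them, were listed at 0 in every library. Markers of lymphoid cells summed to 64.7 to 66.2 FPKM in NCO, 76.7 to 86.2 FPKM in NC1 and 74.3 to 78.7 FPKM in KO1, and 5 of these 17 genes, with the T cell receptor components CD3D, CD3E and CD3G, were listed at 0. Most of this sum was NKG7, at 33.5, 47.9 and 35.1 FPKM in NCO, NC1 and KO1, and NCAM1, at 23.5, 22.7 and 31.7 FPKM. Markers of stromal and epithelial cells summed to 29.4 to 32.5 FPKM in NCO, 31.8 to 32.9 FPKM in NC1 and 24.7 to 25.4 FPKM in KO1, and 2 of these 15 genes were listed at 0. Most of this sum was PECAM1, at 26.8, 25.4 and 21.0 FPKM in NCO, NC1 and KO1. Of the markers that passed the filter, 8 myeloid genes were called higher and 1 lower of 11 in NC1 minus KO1, 1 and 3 in NCO minus NC1, and 5 and 0 in NCO minus KO1. Over all tested genes the shares called higher and lower were 28.9% and 18.3%, 6.12% and 8.62%, and 32.1% and 20.1%, in the same order. Among 3 lymphoid genes NKG7 was called higher and NCAM1 lower in NC1 minus KO1, and among 4 stromal and epithelial genes COL1A1, KRT8 and PECAM1 were called higher, with 0 lower. COL1A1 averaged 1.44 FPKM in NC1 and 0.371 FPKM in KO1, and KRT8 3.14 FPKM in NC1 and 0.782 FPKM in KO1. Both passed the filter only through NC1 and NCO libraries, so their direction against KO1 was partly set by the filter. In NCO minus NC1 NKG7 and KRT8 were called lower, at -0.50 and -0.70, beside the 10 of 30 PU.1 and C/EBP target genes called lower there. In NCO minus KO1 CD79B, NCAM1 and DCN were called lower and COL1A1, KRT8 and PECAM1 higher. DCN averaged 0.407 FPKM in NCO, 0.935 FPKM in NC1 and 1.12 FPKM in KO1. It passed the filter only through NC1 and KO1 libraries, so its direction in NCO minus KO1 was also partly set by the filter. EPOR, the 1 erythroid gene tested, was not called in any comparison. The part of these markers in the results below was not tested. In bulk RNA, fewer cells of a type and less RNA per cell cannot be told apart.

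Promoters are shown for KLF4, the member with the largest rise against KO1, and for CEBPA and GFI1, a pair called lower there. The reason is that decitabine, given to NC1 and NCO by their labels, acts on cytosine methylation at CpG. Whether these calls are responses to the drug was not tested. Each line gives the 250 bases before the RefSeq start (GRCh38.p14), 5′ to 3′ on the gene's strand, with every CpG in capitals. The windows are chr9:107489770-107490019 for KLF4, chr19:33302535-33302784 for CEBPA and chr1:92486926-92487175 for GFI1, all on the minus strand.
KLF4: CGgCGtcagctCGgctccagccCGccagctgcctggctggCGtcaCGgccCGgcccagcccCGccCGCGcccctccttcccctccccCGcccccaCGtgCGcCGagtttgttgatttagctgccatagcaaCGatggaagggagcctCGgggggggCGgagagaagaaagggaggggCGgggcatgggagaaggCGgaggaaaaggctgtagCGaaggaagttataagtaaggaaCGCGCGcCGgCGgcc
CEBPA: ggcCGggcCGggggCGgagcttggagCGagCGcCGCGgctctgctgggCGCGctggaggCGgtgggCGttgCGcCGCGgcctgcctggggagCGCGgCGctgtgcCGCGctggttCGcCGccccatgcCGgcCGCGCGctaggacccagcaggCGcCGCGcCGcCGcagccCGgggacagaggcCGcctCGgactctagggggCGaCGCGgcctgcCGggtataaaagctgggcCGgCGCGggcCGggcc
GFI1: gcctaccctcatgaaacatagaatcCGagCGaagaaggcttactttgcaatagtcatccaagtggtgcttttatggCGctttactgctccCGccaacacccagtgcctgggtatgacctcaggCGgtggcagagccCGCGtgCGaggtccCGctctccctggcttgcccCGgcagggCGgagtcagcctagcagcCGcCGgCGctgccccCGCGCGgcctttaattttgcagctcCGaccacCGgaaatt
The CEBPA window held 41 CpG, more than 98.3% of the 35116 promoter windows in the RefSeq table. The KLF4 window held 25 CpG and the GFI1 window shown 19, more than 78.4% and 65.4% of windows, and the median window held 11. High counts were not limited to members with calls. Among members not called in NC1 minus KO1, the CEBPB windows held 25 and 38 CpG, MYB 34 and RUNX1 32. CEBPE, which was not tested, held 2. The RefSeq start of KLF4 lies 713 bases inside the span that the deposited table gives, while the start of CEBPA is the same in both. For GFI1 the RefSeq table holds 3 windows; the one shown has the start of the deposited table, and the others start inside the gene. RefSeq windows were matched for 7 of the 10 genes. DNA methylation was not analysed here, so these sequences describe the promoters and not their state.

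The letters of 6 short motifs were also counted in these windows on both strands: GGAA, the core bound by ETS factors such as PU.1, TTGCNNAA for C/EBP, CACGTG for MYC and MAX, TGTGGT for RUNX1, CACCC for KLF factors and AACNG for MYB. The KLF4 window held 5 GGAA, a motif found in 92.7% of all windows, and 1 CACGTG, found in 6.34%. The GFI1 window shown held 1 GGAA and 1 CACCC, the second found in 54.7% of windows. The other GFI1 windows held 4 GGAA and 1 AACNG each, one with 1 TTGCNNAA and 1 TGTGGT and the other with 1 CACCC. The CEBPA window held none of these letters. No matches of different motifs overlapped in the 3 windows shown. A match describes the letters and is not a binding site.

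SPI1 and CEBPA were by far the most abundant of these transcripts in every group, and CEBPE was the least abundant. In NCO the order by mean FPKM was SPI1, CEBPA, CEBPB, GFI1, CEBPD, MYB, MYC, KLF4, RUNX1 and CEBPE, and only GFI1 and CEBPD overlapped their neighbour in the order. In NC1 it was SPI1, CEBPA, CEBPB, CEBPD, GFI1, MYB, MYC, KLF4, RUNX1 and CEBPE, with overlap between SPI1 and CEBPA and between CEBPD and GFI1. In KO1 it was CEBPA, SPI1, GFI1, CEBPB, MYB, CEBPD, MYC, RUNX1, KLF4 and CEBPE, with overlap between MYB and CEBPD and between CEBPD and MYC. CEBPA thus stood below SPI1 in NCO and above it in KO1, and KLF4 stood above RUNX1 in NCO and NC1 and below it in KO1.

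**Figure D1:**
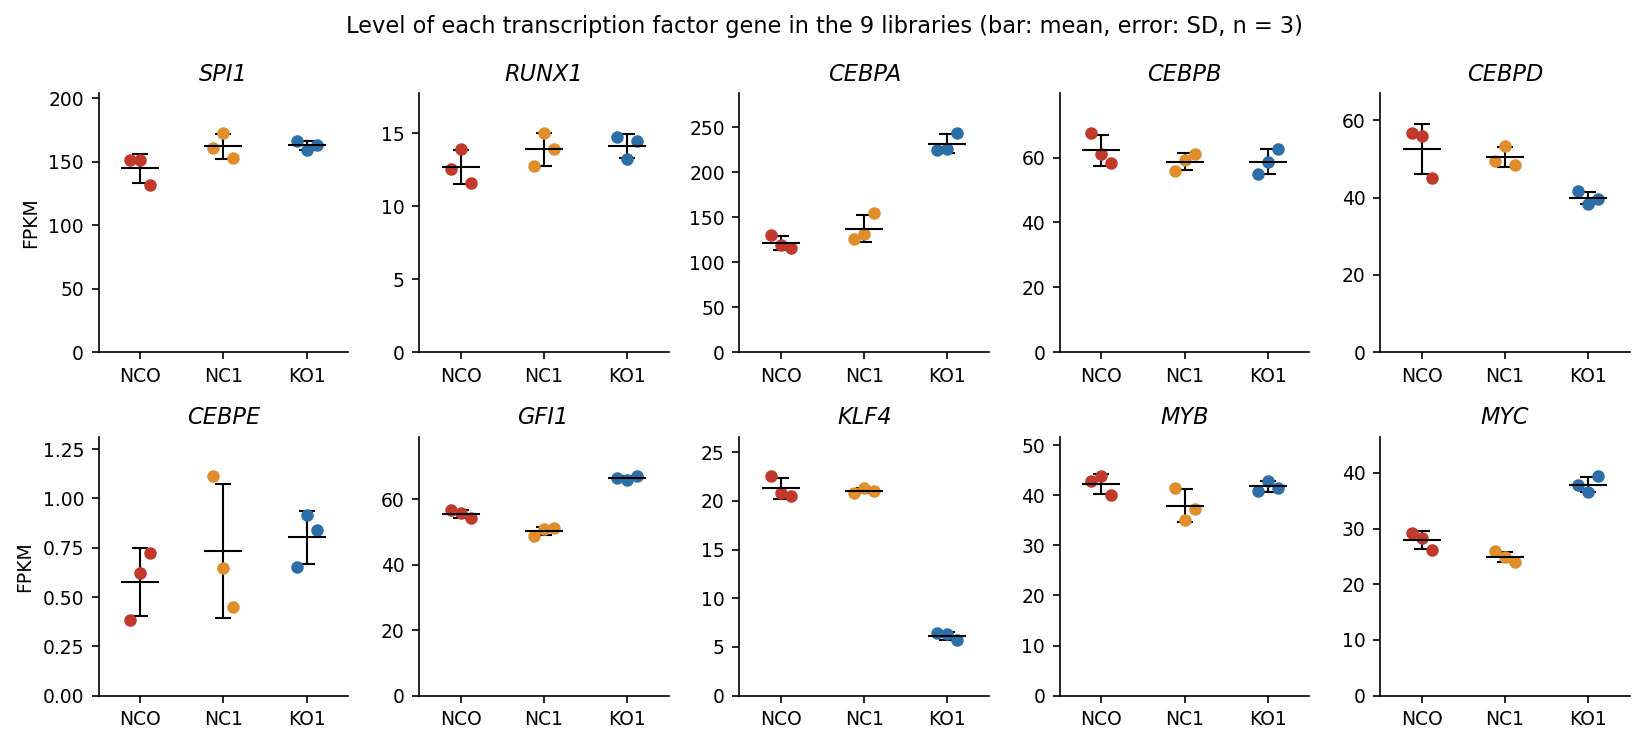
FPKM of each of the 10 genes in the 9 libraries, with 1 point per library, a bar at the mean and error bars of 1 SD (n = 3), and each vertical axis starting at 0. KLF4 lies between 20.5 and 22.5 FPKM in NCO and between 20.8 and 21.3 FPKM in NC1, above the 5.67 to 6.42 FPKM of KO1, while CEBPA, GFI1 and MYC lie lower in NCO and NC1 than in KO1.

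Between NC1 and KO1 the labelled difference is decitabine against vehicle in wild-type cells. KLF4 was 3.43 times as high in NC1 as in KO1 and CEBPD 1.26 times, while CEBPA stood at 0.592, MYC at 0.658 and GFI1 at 0.757 of the KO1 mean. SPI1, RUNX1 and CEBPB had mean levels in NC1 that lay within 2% of those in KO1, and MYB did not pass the threshold. Called means an adjusted p under 0.05 in limma on log2(FPKM + 1), adjusted over all 12586 genes tested. Of the 9 genes tested, 2 were called higher and 3 lower, against 47.2% of all tested genes called in either direction, 28.9% higher and 18.3% lower. The count is therefore near the background, and 5 of the 10 genes had libraries that did not overlap, against 56.5% of tested genes. The median log2 fold change of the 9 genes was -0.025, against 0.0612 over all genes tested. Replicate numbers are the only sign that libraries are separate, so p-values measure the spread between these libraries, which may be technical.

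NCO against KO1 differs in both labels, and gave 6 calls among the 9 genes, 2 higher and 4 lower. The background here was 52.2% of genes called, 32.1% higher and 20.1% lower, and 6 of the 10 genes did not overlap, against 61.2% of tested genes. The genes called in NC1 minus KO1 were all called again in the same direction, but both comparisons use the same KO1 libraries. NCO against NC1 compares the libraries labelled knockdown with wild type, both under decitabine. It gave 1 call, GFI1, higher in NCO, against 14.7% of genes called, 6.12% higher and 8.62% lower. GFI1 and MYC were higher and SPI1 lower in NCO with no overlap, 3 of 10 genes against 34.3% of tested genes. The medians of the 9 genes were -0.149 in NCO minus KO1 and 0.053 in NCO minus NC1, against 0.076 and 0.00865 over all genes tested.

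**Figure D2:**
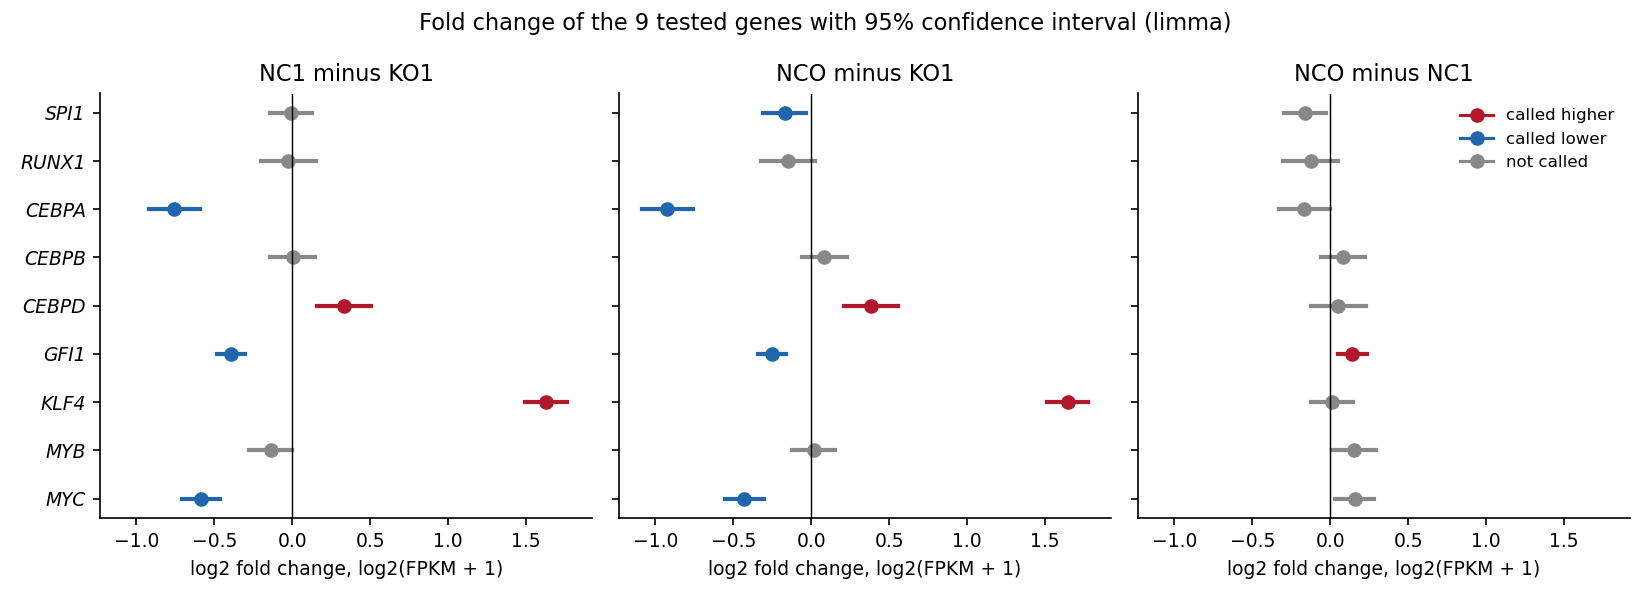
Log2 fold change on the log2(FPKM + 1) scale of the 9 tested genes in NC1 minus KO1, NCO minus KO1 and NCO minus NC1, with points for the limma estimate and lines for its 95% confidence interval. KLF4 stands apart at 1.63 and 1.64 in both comparisons with KO1, and in NCO minus NC1 no estimate is farther from 0 than -0.17.

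SPI1 (ENSG00000066336, chromosome 11, 47354860 to 47378547, minus strand, GRCh38) encodes PU.1, the ETS factor that sets the monocyte programme. It had 151.3, 151.5 and 131.9 FPKM in NCO, 161.1, 172.7 and 152.6 FPKM in NC1, and 166.4, 158.9 and 163.6 FPKM in KO1. The NC1 libraries spanned the KO1 libraries, and the NCO libraries all lay below both groups, with replicate 3 the lowest. The log2 fold change was -0.01 ± 0.06 in NC1 minus KO1 (SE, adjusted p = 0.917) and -0.16 ± 0.06 in NCO minus NC1 (adjusted p = 0.103). In NCO minus KO1 SPI1 was called lower at -0.17 ± 0.06 (adjusted p = 0.0374). That call rests on few libraries and on the scaling: without NCO replicate 3 the adjusted p was 0.143, without KO1 replicates 1, 2 and 3 it was 0.105, 0.0544 and 0.0809, and with mitochondrial genes removed the fold change was -0.03 (adjusted p = 0.674). Over the 19 alternatives its adjusted p ranged between 0.00654 and 0.674.

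RUNX1 (ENSG00000159216, chromosome 21, 34787801 to 36004667, minus strand) encodes the core-binding factor needed for blood stem cells. Its levels were 12.56, 13.91 and 11.55 FPKM in NCO, 12.76, 15.01 and 13.92 FPKM in NC1, and 14.75, 13.21 and 14.48 FPKM in KO1, so all 3 groups overlapped. No comparison called it, with log2 fold changes of -0.02 in NC1 minus KO1 (95% confidence interval -0.20 to 0.15), -0.12 in NCO minus NC1 (-0.30 to 0.05) and -0.15 in NCO minus KO1 (-0.33 to 0.03). In the last of these it was called lower under trimmed-mean scaling, at -0.22 (adjusted p = 0.0327, range over its alternatives 0.0327 to 0.837).

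CEBPA (ENSG00000245848, chromosome 19, 33299934 to 33302534, minus strand) is a gene of 1 exon and encodes C/EBPα, which drives granulocyte and monocyte commitment and restrains proliferation. It had 130.3, 119.3 and 115.4 FPKM in NCO, 125.4, 131.7 and 154.3 FPKM in NC1, and 225.0, 226.1 and 243.7 FPKM in KO1. Every NCO and NC1 library lay below every KO1 library, and NCO overlapped NC1, where replicate 3 was the highest. CEBPA was lower in NC1 by a log2 fold change of -0.76 ± 0.07 (SE, adjusted p = 1.21e-05) and in NCO by -0.92 ± 0.07 (adjusted p = 2.77e-06). Both calls were made in all 19 alternatives, with fold changes between -0.84 and -0.69 in NC1 minus KO1 and between -0.996 and -0.771 in NCO minus KO1. In NCO minus NC1 the fold change was -0.17 ± 0.07 (adjusted p = 0.153). By fold change CEBPA ranked 167 of the 5309 genes that were lower in NC1 than in KO1.

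CEBPD (ENSG00000221869, chromosome 8, 47736913 to 47738164, minus strand), also a gene of 1 exon, encodes C/EBPδ, a factor of acute inflammatory responses in myeloid cells. It went the other way, with 56.7, 55.84 and 45.16 FPKM in NCO, 49.5, 53.31 and 48.41 FPKM in NC1, and 41.62, 38.41 and 39.58 FPKM in KO1. All NCO and NC1 libraries lay above those of KO1, the nearest being NCO replicate 3. The log2 fold change was 0.33 ± 0.08 in NC1 minus KO1 (SE, adjusted p = 0.00559) and 0.38 ± 0.08 in NCO minus KO1 (adjusted p = 0.00203), and both calls were made in all 19 alternatives. NCO minus NC1 gave 0.05 ± 0.08 (adjusted p = 0.69).

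CEBPB (ENSG00000172216, chromosome 20, 50190830 to 50192668, plus strand) encodes C/EBPβ, which can stand in for C/EBPα when granulocyte output is raised in stress. It had 67.57, 61.06 and 58.23 FPKM in NCO, 55.89, 59.28 and 60.98 FPKM in NC1, and 54.83, 58.73 and 62.51 FPKM in KO1. The 3 groups overlapped, and no comparison called it, with log2 fold changes of 0.00 in NC1 minus KO1 (95% confidence interval -0.14 to 0.15), 0.08 in NCO minus NC1 (-0.06 to 0.23) and 0.08 in NCO minus KO1 (-0.06 to 0.23). With mitochondrial genes removed it was called higher in NCO minus KO1, at 0.22 (adjusted p = 0.0125, range over its alternatives 0.0125 to 0.882).

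CEBPE (ENSG00000092067, chromosome 14, 23117304 to 23119616, minus strand) encodes C/EBPε, the factor of late granulocyte maturation. It was near the bottom of the measured range, with 0.384, 0.624 and 0.721 FPKM in NCO, 1.11, 0.646 and 0.449 FPKM in NC1, and 0.653, 0.917 and 0.839 FPKM in KO1. Only NC1 replicate 1 passed 1 FPKM, and the groups overlapped. Exact two-sided permutation tests gave p = 0.2 for NCO against KO1, p = 0.6 for NCO against NC1 and p = 0.8 for NC1 against KO1, where 0.1 is the smallest value that 3 against 3 allows.

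CEBPA, CEBPB, CEBPD and CEBPE had a lower summed level and another make-up in NCO and NC1 than in KO1. They summed to 237 ± 17.75 FPKM in NCO, 247 ± 16.2 FPKM in NC1 and 331 ± 13.6 FPKM in KO1 (SD, n = 3). The NCO sums, at 219.5 to 255.0 FPKM, and the NC1 sums, at 231.9 to 264.1 FPKM, all lay below the KO1 sums, at 322.1 to 346.6 FPKM. CEBPA made up 51.4% ± 1.12 of the sum in NCO, 55.4% ± 2.59 in NC1 and 70.0% ± 0.299 in KO1. CEBPD made up 22.1% ± 1.503 in NCO, 20.5% ± 1.87 in NC1 and 12.1% ± 0.772 in KO1. CEBPB, whose own level was not called, made up 26.3% ± 0.422 in NCO, 23.8% ± 0.614 in NC1 and 17.7% ± 0.611 in KO1. No share of 1 member overlapped between KO1 and the other groups, apart from that of CEBPE, and these shares were not tested. The shares of a library add up to the whole, so they are not separate results. A lower level of CEBPA alone raises the shares of the other members. The sum leaves out CEBPG, at 18.6 ± 0.678 FPKM in NCO, 16.7 ± 1.93 FPKM in NC1 and 18.4 ± 0.843 FPKM in KO1, and the C/EBP relative DDIT3, which was higher in NCO and NC1 than in KO1.

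**Figure D3:**
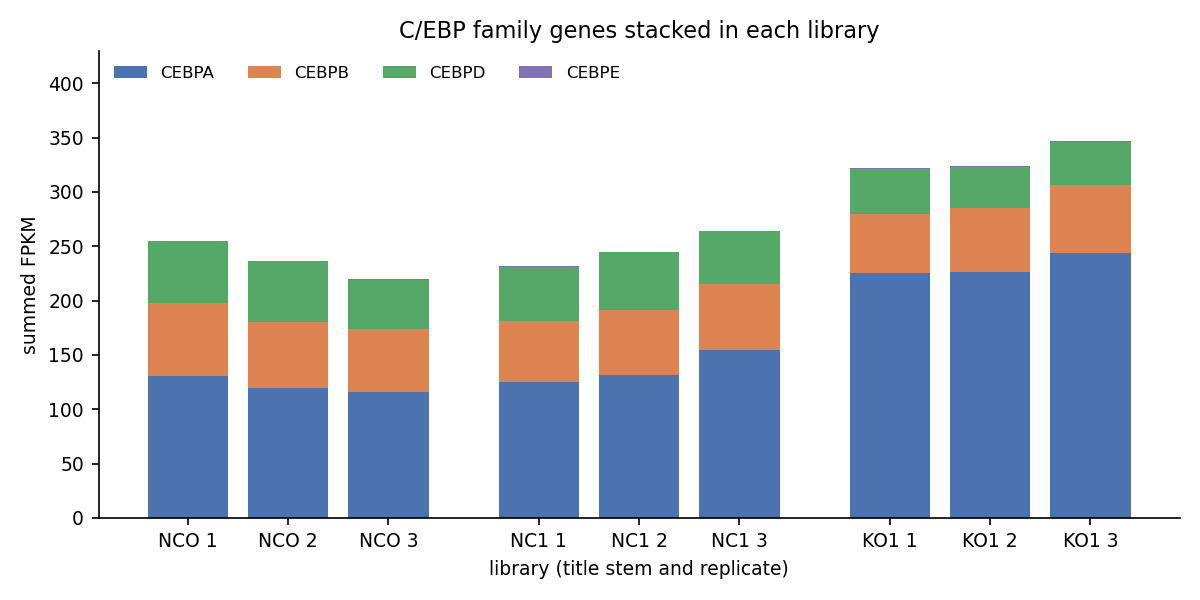
FPKM of CEBPA, CEBPB, CEBPD and CEBPE stacked in each of the 9 libraries, with bars starting at 0. The bars of NCO and NC1 reach 219.5 to 264.1 FPKM and those of KO1 322.1 to 346.6 FPKM, and the CEBPA segment is the one that differs most.

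KLF4 (ENSG00000136826, chromosome 9, 107484852 to 107490482, minus strand) encodes a zinc finger factor that acts downstream of PU.1 in monocyte differentiation. It had 22.5, 20.83 and 20.52 FPKM in NCO, 20.84, 21.28 and 21.01 FPKM in NC1, and 6.419, 6.316 and 5.668 FPKM in KO1. The lowest NCO or NC1 library was more than 3 times the highest KO1 library, and NCO and NC1 overlapped. The log2 fold change was 1.63 ± 0.06 in NC1 minus KO1 (SE, adjusted p = 3.98e-09) and 1.64 ± 0.06 in NCO minus KO1 (adjusted p = 5.77e-09). In NC1 minus KO1 this was rank 75 of the 7277 genes with a positive fold change, and across the 19 alternatives the value lay between 1.54 and 1.76. NCO minus NC1 gave 0.01, with a 95% confidence interval of -0.12 to 0.15 (adjusted p = 0.902).

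GFI1 (ENSG00000162676, chromosome 1, 92473043 to 92486925, minus strand) encodes a zinc finger repressor that recruits CoREST and histone demethylase and deacetylase activity to myeloid and stem cell genes. It had 56.75, 55.89 and 54.27 FPKM in NCO, 48.85, 50.93 and 51.24 FPKM in NC1, and 66.63, 65.87 and 67.01 FPKM in KO1. The 3 groups did not overlap, with KO1 the highest, NCO between and NC1 the lowest. The log2 fold change was -0.40 ± 0.04 in NC1 minus KO1 (SE, adjusted p = 1.89e-05) and -0.25 ± 0.04 in NCO minus KO1 (adjusted p = 0.000441), and both calls were made in all 19 alternatives. With mitochondrial genes removed the second of these was -0.12 (adjusted p = 0.0272, range over its alternatives 4.26e-05 to 0.0272). In NCO minus NC1 GFI1 was called higher at 0.14 ± 0.04 (adjusted p = 0.0422), just inside the threshold. That call was made in 8 of 19 alternatives, with an adjusted p between 0.0038 and 0.127, and was lost without NCO replicate 1 (0.126) or 2 (0.122), without NC1 replicate 1 (0.127) or 2 (0.0788), and without KO1 replicate 1 (0.0681), 2 (0.0629) or 3 (0.0564).

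MYC (ENSG00000136997, chromosome 8, 127735434 to 127742951, plus strand) encodes the factor that pairs with MAX and raises ribosome and nucleotide synthesis. It had 29.23, 28.37 and 26.13 FPKM in NCO, 25.92, 24.83 and 24.06 FPKM in NC1, and 37.75, 36.61 and 39.35 FPKM in KO1. The groups did not overlap and stood in the same order as for GFI1, although NCO replicate 3 lay close to NC1 replicate 1. MYC was lower in NC1 minus KO1, at -0.58 ± 0.06 (SE, adjusted p = 9.38e-06), and in NCO minus KO1, at -0.43 ± 0.06 (adjusted p = 9.24e-05), in all 19 alternatives. NCO minus NC1 gave 0.16 ± 0.06 and was not called (adjusted p = 0.0855). It was called higher there under quantile normalization (adjusted p = 0.0432) and with mitochondrial genes removed (adjusted p = 0.0301), and without NCO replicate 3 (adjusted p = 0.0456), within a range over its alternatives of 0.0301 to 0.238.

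MYB (ENSG00000118513, chromosome 6, 135181308 to 135219173, plus strand) encodes the progenitor factor on which many acute myeloid leukaemias depend. Its levels were 42.94, 43.75 and 40.06 FPKM in NCO, 41.5, 35.04 and 37.25 FPKM in NC1, and 40.88, 42.88 and 41.49 FPKM in KO1. NC1 replicates 2 and 3 were the lowest libraries, and NC1 replicate 1 lay within the range of both other groups. No comparison called it, with log2 fold changes of -0.14 ± 0.06 in NC1 minus KO1 (SE, adjusted p = 0.0917), 0.15 ± 0.06 in NCO minus NC1 (adjusted p = 0.122) and 0.02 ± 0.06 in NCO minus KO1 (adjusted p = 0.844). MYB was called lower in NC1 minus KO1 without NC1 replicate 1 (adjusted p = 0.0181) and under trimmed-mean scaling (adjusted p = 0.0202), within a range of 0.0181 to 0.411. It was called higher in NCO minus NC1 under quantile normalization (adjusted p = 0.0381), with mitochondrial genes removed (0.0393) and without NC1 replicate 1 (0.0403), within a range of 0.0381 to 0.341.

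A list of myeloid genes that PU.1 or C/EBP proteins are known to bind was mostly called higher in NC1 than in KO1, with CEBPA lower there and SPI1 not called. This list and those below were chosen with earlier results of these data known. Their counts therefore describe the listed genes and not targets in general. Of 30 tested genes on this list, 18 were called higher, 1 lower and 11 not, with a median log2 fold change of 0.30 against 0.06 over all genes. The list shares CD33, ITGAM, ITGB2, CD68, LYZ, CSF1R, CSF2RA, FCER1G and TYROBP with the myeloid markers above, so the 2 counts are not separate results. The remaining markers, FLT3, HOXA9 and MEIS1, are on the list of MYB targets below. Of the 224 genes in all lists, 14 were in more than 1. Trimmed-mean scaling gave 16 higher and 5 lower, and quantile normalization 16 and 3. Of all tested genes, 28.9% were called higher and 18.3% lower in NC1 minus KO1. These shares were 6.12% and 8.62% in NCO minus NC1, and 32.1% and 20.1% in NCO minus KO1. They are the background for this list and those below. CD68, a lysosomal protein of macrophages, averaged 240 ± 15.2 FPKM in NC1 and 72.1 ± 3.33 FPKM in KO1 (log2 fold change 1.72, adjusted p = 8.16e-10). CSF1R, the receptor for macrophage colony-stimulating factor, and PRTN3, a neutrophil granule protease, were higher by 0.86 and 0.98. With FPKM as deposited, the 1 gene called lower was MS4A3, a membrane protein of granulocyte and monocyte progenitors. It averaged 23.4 ± 0.409 FPKM in NC1 and 33.5 ± 2.71 FPKM in KO1 (-0.50, adjusted p = 0.000132), and was named after its value was seen.

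The same list had, in NCO minus NC1, 2 genes called higher and 10 lower of 30, with a median of -0.05. AZU1, the granule protein azurocidin, averaged 842 ± 37.4 FPKM in NCO and 1077 ± 40.5 FPKM in NC1 (-0.35, adjusted p = 0.00161), and S100A9, a calcium-binding alarmin, 336 ± 13.6 FPKM in NCO and 432 ± 40.8 FPKM in NC1 (-0.36, adjusted p = 0.00603). CD68 and PRTN3 were lower in NCO by -0.29 and -0.35. Quantile normalization gave 4 higher and 3 lower, while trimmed-mean scaling gave 2 and 9 and removal of mitochondrial genes 3 and 7. In NCO minus KO1 the list had 14 genes called higher and 5 lower, with a median of 0.14. Among those higher were CSF1R at 0.88, CD68 at 1.43 and BTK, a kinase of myeloid and B cells, at 0.58.

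The listed MYC target genes, most of them of ribosome and nucleotide synthesis, were more often called lower than higher in NC1 than in KO1, with MYC itself lower. The list also holds genes of other roles, among them LDHA, TFRC, CDK4 and the polyamine enzymes ODC1 and SRM. Of 37 tested, 5 were called higher and 16 lower, with a median of -0.12 against 0.06 over all genes. Over all tested genes, 28.9% were called higher and 18.3% lower. Removal of mitochondrial genes gave 8 and 14 for this list, with a median of -0.058 against 0.124 over all genes. IMPDH2, the rate-limiting enzyme of guanine nucleotide synthesis, averaged 137 ± 1.66 FPKM in NC1 and 212 ± 2.76 FPKM in KO1 (-0.63, adjusted p = 4.91e-07). NPM1, an abundant nucleolar protein, averaged 385 ± 27.4 FPKM in NC1 and 581 ± 25.2 FPKM in KO1 (-0.59, adjusted p = 7.75e-06), and the polyamine enzyme ODC1 was lower by -0.50. NOP58, a core protein of box C/D small nucleolar particles, went the other way, at 20.7 ± 0.399 FPKM in NC1 and 12.5 ± 0.252 FPKM in KO1 (0.68, adjusted p = 1.57e-06).

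In NCO minus KO1 these targets split into 7 higher and 15 lower, with a median of -0.14, but removal of mitochondrial genes gave 11 and 12. CDK4, the G1 cyclin-dependent kinase, and NPM3, a nucleolar chaperone, were lower by -0.65 and -0.78. NCO minus NC1 had 1 gene higher, the purine enzyme GART at 0.21, and 6 lower, among them NOP58 at -0.33, the spermidine synthase SRM at -0.27 and the ribosome biogenesis factor BOP1 at -0.26. Under quantile normalization the last count became 5 higher and 3 lower.

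The MYC and MAX network, made of MYC relatives, MAX partners and cofactors, had 9 genes called higher and 4 lower of 23 tested in NC1 minus KO1, with a median of 0.06 against 0.06 over all genes, and 7 and 6 under trimmed-mean scaling. MXD1, which pairs with MAX and opposes MYC, averaged 5.57 ± 0.271 FPKM in NC1 and 2.22 ± 0.185 FPKM in KO1 (1.03, adjusted p = 1.42e-06). MXI1, another MAX partner that opposes MYC, was lower by -0.48, MLX was lower by -0.30, and MYCL, a MYC paralogue, was higher by 0.30. In NCO minus KO1, 11 were called higher and 4 lower, including MXD1 at 1.14, MNT at 0.80 and MGA at 0.51, which all encode MAX partners, and MXD3 at -0.39. In NCO minus NC1 1 was higher, MXI1 at 0.37, and 1 lower, MXD3 at -0.25.

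MYB target genes, a list of 21 that also holds MYC and GFI1, had 4 called higher and 10 lower of 17 tested in NC1 minus KO1, with a median of -0.24, while MYB itself was not called. Over all tested genes, 28.9% were called higher and 18.3% lower. Removal of mitochondrial genes gave 5 and 8 for this list, with a median of -0.185. The survival factor BCL2 averaged 8.14 ± 0.299 FPKM in NC1 and 16.6 ± 0.0621 FPKM in KO1 (-0.95, adjusted p = 1.7e-07), and LMO2, a bridging protein of blood transcription complexes, 38.7 ± 2.07 FPKM in NC1 and 67.7 ± 1.75 FPKM in KO1 (-0.79, adjusted p = 3.28e-06). SORL1, a sorting receptor, was higher by 0.87. NCO minus KO1 gave 5 higher and 7 lower, with BCL2 at -0.76, LMO2 at -0.72 and the mitotic cyclin CCNB1 at -0.51, and removal of mitochondrial genes gave 6 and 6. NCO minus NC1 gave 3 higher and 1 lower: BCL2 at 0.19, the homeobox gene HOXA9 at 0.21 and GFI1 were higher, and the cyclin CCNA1 was lower at -0.28.

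**Figure D4:**
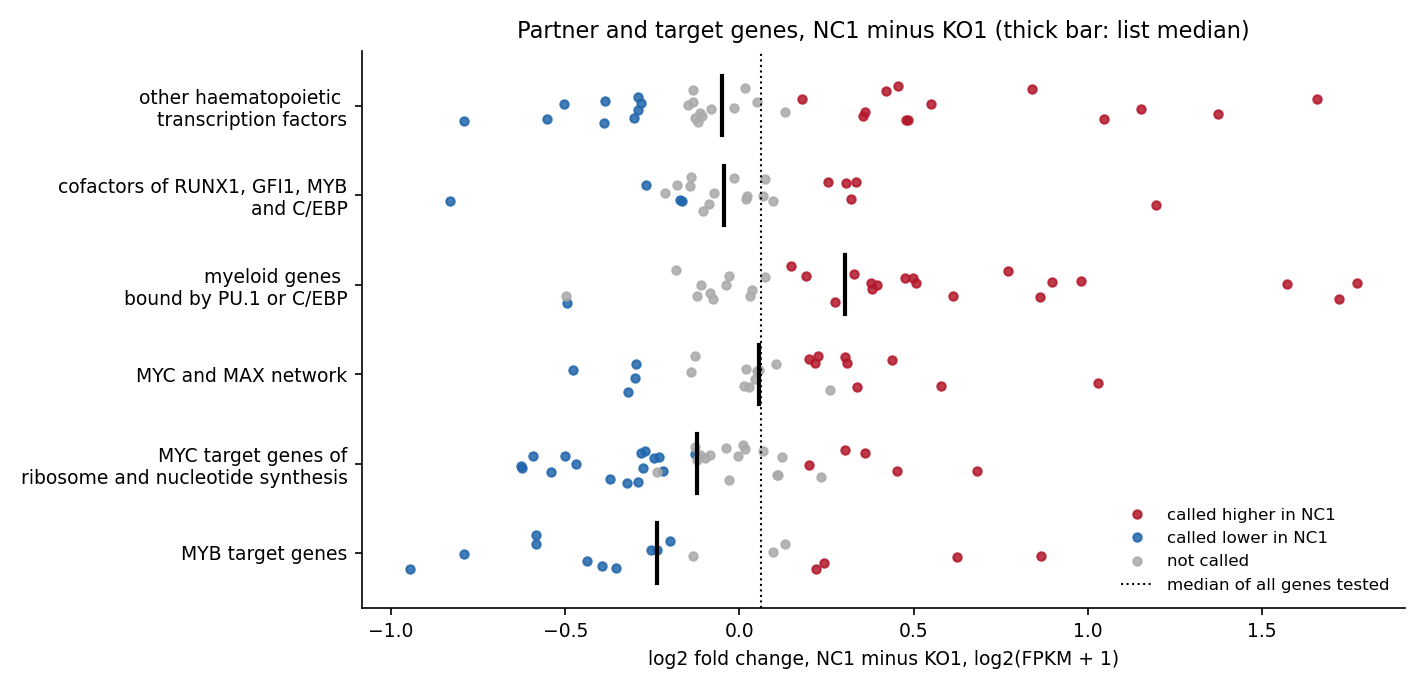
Log2 fold change in NC1 minus KO1 on the log2(FPKM + 1) scale for the tested genes of 6 lists, with 1 point per gene coloured by its call, a thick bar at the list's median and a dotted line at the median of all genes tested, 0.06. The list of PU.1 and C/EBP targets has its median at 0.30, and the lists of MYC and MYB targets have theirs at -0.12 and -0.24. The lists were chosen with earlier results of these data known.

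Other haematopoietic transcription factors gave calls in both directions. In NC1 minus KO1, 13 of 34 tested were called higher and 9 lower, with 12 and 12 under trimmed-mean scaling and 13 and 14 under quantile normalization. EGR1, an immediate early zinc finger factor, averaged 82.9 ± 3.48 FPKM in NC1 and 31.4 ± 1.00 FPKM in KO1 (1.37, adjusted p = 1.25e-08), and NFE2 was higher by 1.05, while LMO2 was lower by -0.79. In NCO minus KO1, 17 were called higher and 7 lower, with EGR1 at 1.46 and the repressor BCL6 at 1.15. In NCO minus NC1, 8 were called higher, among them the ETS factor ELF1 at 0.47 and the lymphoid regulator IKZF1 at 0.32, and 3 lower, with SPIB, the closest relative of PU.1, at -0.53 and LYL1 at -0.33.

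Of the 22 tested cofactors of RUNX1, GFI1, MYB and C/EBP, 5 were called higher and 4 lower in NC1 minus KO1, near the 28.9% and 18.3% of all tested genes, and the split turned to 4 and 9 under trimmed-mean scaling and 2 and 7 under quantile normalization. DDIT3, the stress-induced C/EBP relative CHOP, averaged 74.8 ± 3.998 FPKM in NC1 and 32.2 ± 3.09 FPKM in KO1 (1.20, adjusted p = 1.94e-07), and HDAC2, a deacetylase of repressor complexes, 10.5 ± 1.85 FPKM in NC1 and 19.4 ± 3.09 FPKM in KO1 (-0.83, adjusted p = 0.000357). RCOR1, the CoREST scaffold that GFI1 recruits, was higher in NC1 than in KO1 by 0.32 and in NCO than in NC1 by 0.26 (adjusted p = 0.0136). The acetyltransferase EP300 was also higher in NCO minus NC1, at 0.40, and DDIT3 was lower, at -0.35, which made 2 higher and 1 lower. NCO minus KO1 gave 8 higher and 3 lower, with TRIB2, a pseudokinase that promotes loss of C/EBPα protein, at 0.51.

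How the members varied together over the 9 libraries is given as Pearson's r of log2(FPKM + 1), as a description, since these libraries fall into 3 groups and share the scaling of each library. GFI1 and MYC followed each other most closely (r = 0.971), and CEBPA followed both (r = 0.857 with GFI1 and 0.872 with MYC). KLF4 ran against them, with r = -0.960 to CEBPA, -0.942 to MYC and -0.918 to GFI1, and with CEBPD at 0.879. SPI1 and RUNX1 were related at 0.829, and CEBPB had no r above 0.415 in size with any other member.

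Among 7143 tested genes with a mean of at least 5 FPKM, the closest patterns over the 9 libraries were those of IFIH1, SEPTIN4 and PER1 to KLF4 (r of 0.998 to 0.999), with 472 genes at 0.95 or more. CEBPA was followed most closely by CDKN2AIPNL, LAPTM5 and HPCAL1 (0.991 to 0.993, 238 genes at 0.95 or more), GFI1 by GTPBP2, TNPO2 and CHD4 (0.992 to 0.995, 149 genes), and MYC by MARK4, APBB1IP and DUSP7 (0.988 each, 151 genes). CEBPD was followed by AKAP8L and GAA (0.987 and 0.983, 19 genes) and SPI1 by C1orf35, WIPF1 and BRD9 (0.940 to 0.973, 2 genes). No gene reached 0.95 with CEBPB, RUNX1 or MYB, whose closest were KCTD10, MKNK2 and SUN2, KIFC1, SLC39A4 and TFEB, and ATP11A, DERA and PIK3CB.

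Of the genes that overlap a member or start within 10 kb of its ends, 3 passed the filter. Beside CEBPA stood CEBPA-DT, a long non-coding RNA on the other strand whose start lies 323 bases from that of CEBPA. It averaged 5.14 ± 0.366 FPKM in NCO, 5.200 ± 0.542 FPKM in NC1 and 6.73 ± 0.235 FPKM in KO1, and was lower in NC1 minus KO1 (-0.32, adjusted p = 0.0067) and in NCO minus KO1 (-0.33, adjusted p = 0.00483), the direction of CEBPA. AC008738.5, antisense to CEBPA, stayed at or below 1.52 FPKM and was not called, and whether strand was used in counting is not stated, so reads of the pair cannot be told apart. LINC01436 starts on the other strand, 671 bases from the start of RUNX1 in the deposited table. The matched RefSeq window of RUNX1, chr21:34888650-34888949, lies far inside the deposited span, so LINC01436 is near the deposited start only. LINC01436 was lower in NC1 minus KO1 (-0.37, adjusted p = 0.00234) and higher in NCO minus NC1 (0.32, adjusted p = 0.0208), whereas RUNX1 was not called. CEBPB-AS1, MYB-AS1 and CASC11, which overlap CEBPB, MYB and MYC on the other strand, did not exceed 0.391, 0.00234 and 0.179 FPKM.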

How the data were processed

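RNA of 9 MV4-11 libraries was extracted with Trizol and made into libraries with a TruSeq kit, per the labels. The deposited values are 1 FPKM per gene and library, as made by the authors; the header names no unit, and FPKM was read from the values and from StringTie in the submitters' processing notes, which also name CASAVA 1.8, Trimmomatic, FastQC, HISAT2, edgeR and GRCh38 without their roles. Steps of single reads were not recovered from low values. Genes with at least 1 FPKM in at least 3 of 9 libraries (12586 of 60612) were fitted together in limma 3.58.1 (R 4.3.3; trend, robust) on log2(FPKM + 1), which understates changes of low genes, with Benjamini-Hochberg adjustment over all tested genes. The method was tested on simulated data. Groups follow title stems. Named were all 10 members, of each list up to 4 genes with the smallest adjusted p, the 3 closest patterns, CD36 and neighbours; a few genes so chosen are not reported here. Members and lists were chosen with earlier results of these data known. Alternatives were pseudocounts of 0.1 and 0.5, no filter or 5 FPKM, 3 scalings, plain moderation, fits of 2 groups, a replicate block and leaving out each library. Further sheets of the workbook were not used here.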

Additional observations from a re-analysis of the deposited data

How the results depend on the processing

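The calls of KLF4, CEBPA, CEBPD, GFI1 and MYC against KO1 were made in all 19 alternatives of both comparisons. The number of members called in NCO minus NC1, 1 as reported, was 0 with no filter on low values, with plain moderation, with 2 groups only and with the replicate block, and 3 both when mitochondrial genes were removed and under quantile normalization. Leaving out single libraries gave 0 to 2. Over all genes, 1855 calls in NCO minus NC1 became 781 with no filter and 908 to 1708 when single libraries were left out, the lowest without NCO replicate 2, with 1055 without NCO replicate 1 and 1076 without NC1 replicate 2. The share of calls that were higher, 61.3% in NC1 minus KO1, 41.5% in NCO minus NC1 and 61.5% in NCO minus KO1, was 51.2%, 39.2% and 51.0% with trimmed-mean scaling, 47.7%, 53.7% and 50.3% with quantile normalization, and 72.2%, 69.7% and 78.2% after removal of mitochondrial genes, which moved the median of all genes in NCO minus KO1 from 0.076 to 0.197. Fold changes near 0 changed sign without being called. In NC1 minus KO1, removal of mitochondrial genes gave 0.062 for SPI1 and 0.042 for RUNX1, CEBPB was -0.061 with trimmed-mean scaling and -0.003 with quantile normalization, and leaving out libraries gave -0.055 to 0.034 for SPI1, -0.046 to 0.048 for CEBPB and -0.078 to 0.031 for RUNX1. In NCO minus NC1 leaving out libraries gave -0.004 to 0.157 for CEBPD and -0.025 to 0.039 for KLF4. In NCO minus KO1 MYB was -0.055 with trimmed-mean scaling and -0.009 to 0.053 with libraries left out. The cause of these differences was not tested. Replicate numbers gave no sign of pairing: deviations of same-numbered libraries correlated at -0.101 to 0.0797 over 9 pairs, and those of differently numbered libraries at -0.0722 to 0.106. With 3 libraries a group, this check cannot tell whether libraries shared a culture or batch. With the replicate block 1389 genes were called in NCO minus NC1. In the other comparisons the counts stayed within 1.5 times. Depth is unknown, so small differences at low FPKM, as for CEBPE, cannot be resolved here.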
